A study of Homo sapiens with 6 samples.

Results

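The genes described here were 43 genes of the lysosome, chosen by name with earlier results of these data known. They were 12 cathepsins and other proteases, 11 glycosidases, 5 sulfatases, 7 lipid-degrading enzymes and their helpers, 5 membrane proteins and 3 transcription factors. All 43 were among the 58735 genes listed for each library, and all 43 passed the filter for testing, a mean of at least 1 FPKM (fragments corrected for the length of the gene and the size of the library), which 13365 genes passed. The study silenced HJURP, the chaperone that loads the centromeric histone CENP-A, in SKOV3, an established human ovarian carcinoma line grown as adherent cells. The siHJURP group (3 libraries) had received an siRNA against HJURP and the NC group (3 libraries) a negative control siRNA, siNC, and total RNA was taken from both with Trizol after 24 hours. The design text names both biological and experimental triplicates without assigning them to libraries. The p-values set the group difference against the scatter among these libraries, which may be technical in part or in whole. In bulk RNA of this kind, fewer cells of a type and less RNA per cell cannot be told apart.

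Lysosomes are acidic compartments in which hydrolases take apart proteins, glycans, sulfated glycosaminoglycans and lipids. Most of these enzymes reach the lysosome with a mannose 6-phosphate tag, and heavily glycosylated membrane proteins such as LAMP1 line the compartment. The transcription factors TFEB, TFE3 and MITF bind E-box elements in the promoters of many lysosomal genes, known as CLEAR elements, and are held in the cytosol when the kinase mTORC1 is active at the lysosomal surface.

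The promoter sequences show which of the genes carry such an element near their start. A window of 300 bases, 250 before and 50 after each annotated start, was searched in the RefSeq promoter table of build GRCh38.p14, in which 31 of the 43 genes had an entry. The E-box CACGTG, which reads the same on both strands, was present in 10 of the 31 genes (32.3%), against 8.78% of the 27305 genes in that table (7.26% of its 35116 promoters, since a gene can have several). The longer form TCACGTGA, which is also the same on both strands and contains the shorter motif, was present in 5 of the 31 (16.1%), against 1.18% of all genes in the table (0.98% of promoters). The following stretches are shown because they hold E-boxes of the genes that were called higher, the gene that was called lower, and 2 well-known genes that were not called. Each is written 5′ to 3′ on the strand of its gene, with CACGTG in capitals.
LAMP1, chr13:113297027-113297236, plus strand: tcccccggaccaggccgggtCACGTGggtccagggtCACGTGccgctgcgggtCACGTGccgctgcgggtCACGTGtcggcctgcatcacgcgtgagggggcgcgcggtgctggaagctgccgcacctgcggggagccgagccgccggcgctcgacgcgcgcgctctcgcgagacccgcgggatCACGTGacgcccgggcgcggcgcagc
GAA, chr17:80101485-80101575, plus strand: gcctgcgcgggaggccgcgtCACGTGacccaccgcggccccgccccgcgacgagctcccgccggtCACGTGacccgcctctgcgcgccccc
CLCN7, chr16:1475030-1475095, minus strand: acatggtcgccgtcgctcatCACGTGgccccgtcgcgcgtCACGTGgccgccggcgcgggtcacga
ARSB, chr5:78986093-78986138, minus strand: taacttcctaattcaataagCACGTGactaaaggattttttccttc
MCOLN1, chr19:7522563-7522623, plus strand: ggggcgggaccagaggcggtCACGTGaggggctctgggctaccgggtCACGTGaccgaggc
CTSA, chr20:45891273-45891334, plus strand: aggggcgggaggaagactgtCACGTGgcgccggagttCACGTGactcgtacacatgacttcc

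LAMP1 held 6 E-boxes, whose first bases lay 192, 176, 159, 142, 28 and 1 bases before the start. The last of these runs across the start and lies outside the printed stretch. GAA, CLCN7, MCOLN1, CTSA, CTSF and GALNS held 2 each, whereas ARSB, CTSD and NEU1 held 1. The TCACGTGA form occurred in LAMP1, GAA, MCOLN1, CTSA and GALNS. Genes with and without an E-box moved in both directions. Of the 10 genes with CACGTG, 3 were called higher in siHJURP (LAMP1, GAA and CLCN7), 1 lower (ARSB) and 6 neither way, with a median log2 fold change of 0.09. Of the 21 genes whose entry held no CACGTG, 9 were called higher, 1 lower and 11 neither way, with a median of 0.11. Among all tested genes, 17.6% were called higher and 20.3% lower. A match of letters is a description and does not show that a factor was bound. CTSS, CTSK, SGSH, LAMP2, NAGLU, MANBA, ARSA, PSAP, CTSB, HEXA, CTSO and ASAH1 had no entry. The split by E-box therefore leaves out NAGLU and LAMP2, called higher, and CTSB and ASAH1, called lower.

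**Figure D1:**
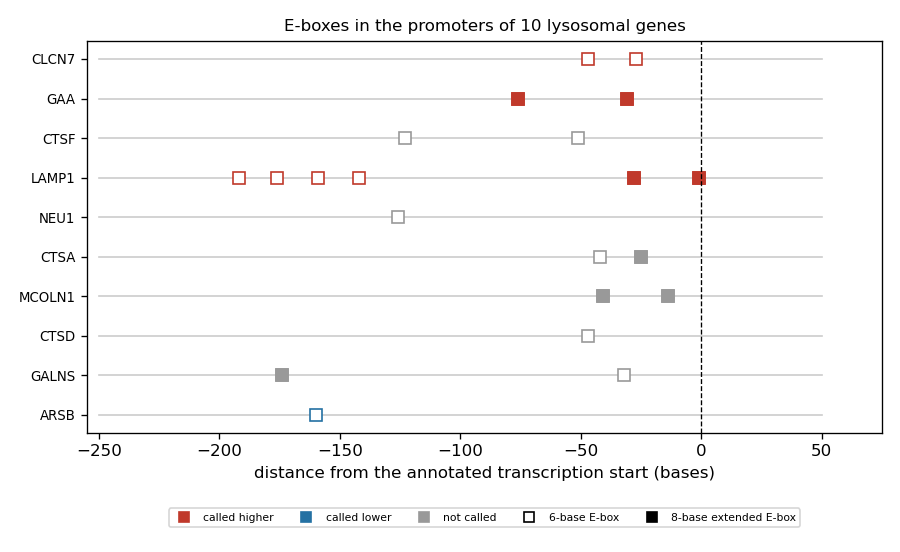
Position of each CACGTG (open squares) and TCACGTGA (filled squares) in the promoters of the 10 lysosomal genes that hold one, in bases from the annotated start, coloured by the call in siHJURP against NC. LAMP1 has 6 E-boxes and ARSB, the only gene of the 10 called lower, has 1 at 160 bases before the start.

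HJURP itself had 8.66, 8.64 and 8.65 FPKM in siHJURP and 29.2, 29.02 and 30.0 FPKM in NC, 70.6% lower (exact permutation test, two-sided, p = 0.1, the smallest that 3 against 3 libraries allow; limma adjusted p = 1.41e-06). The siHJURP libraries held 17524772 to 18027065 reads on genes, and the NC libraries 17116487 to 17625638. The siHJURP libraries were unlike in their interferon-stimulated genes, with replicate 2 the lowest: IFIT1, which binds viral RNA, had 17.5, 3.12 and 24.7 FPKM in siHJURP and 1.63, 2.38 and 1.99 FPKM in NC. Of 12 such genes, 2 (BST2 and IFIT1) were called higher (16.7%, against 17.6% of all tested genes) and 0 lower. The count called higher was 11 without siHJURP replicate 2. It was 0 without any single one of NC replicates 1, 2 and 3 or siHJURP replicates 1 and 3. Of 7 markers of ovarian carcinoma cells, 5 passed the filter, with summed levels of 570.5 to 608.1 FPKM in siHJURP and 608.0 to 625.8 FPKM in NC, and EPCAM and MUC16 were below it. The 5 moved in both directions: SOX17 (-0.93), KRT18 (-0.85), KRT8 (-0.46) and PAX8 (-0.27) were called lower in siHJURP and ERBB2 (0.37) higher, as log2 fold changes, and the part of these shifts in the lysosomal values was not tested. None of 6 macrophage markers passed (summed 0.369 to 0.618 FPKM in siHJURP, 0.553 to 0.990 FPKM in NC), nor did any of the 4 fibroblast, 3 endothelial or 4 melanocyte markers, of which the melanocyte enzyme TYR was at 0 in all 6 libraries.

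Lysosomal genes more often rose than fell after HJURP silencing and CTSB, NAGLU, FUCA1 and IDS changed the most. In a limma test on log2(FPKM + 1), with Benjamini-Hochberg adjustment over all 13365 genes at 0.05, 14 of the 43 were higher in siHJURP (32.6%), 4 were lower (9.30%) and 25 were not called. Of all tested genes, 37.9% were called, 17.6% higher and 20.3% lower. The median log2 fold change was 0.09 over the 43 genes and -0.01 over all tested genes, and the middle size of a called change was 0.30 among the 43 and 0.33 among all called genes. The groups of 3 libraries did not overlap for 28 of the 43 genes (65.1%), 19 of them higher and 9 lower in siHJURP, against 52.2% of all tested genes.

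The split between higher and lower depended on how the libraries were scaled. With the FPKM rescaled to TPM (every library brought to the same sum), 19 of the 43 were called higher and 3 lower, while the shares of all tested genes were 23.6% higher and 16% lower. With siHJURP replicate 2 as the only siHJURP library, 4 were called higher (CTSL, NAGLU, GM2A and CLCN7) and 2 lower (CTSB and IDS), against 5.36% higher and 8.44% lower of all tested genes. That comparison assumes that the lone library varies as the NC libraries do. Relative to the NC mean, the median of the 43 genes was 0.08, 0.06 and 0.11 on the log2 scale in siHJURP replicates 1, 2 and 3.

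**Figure D2:**
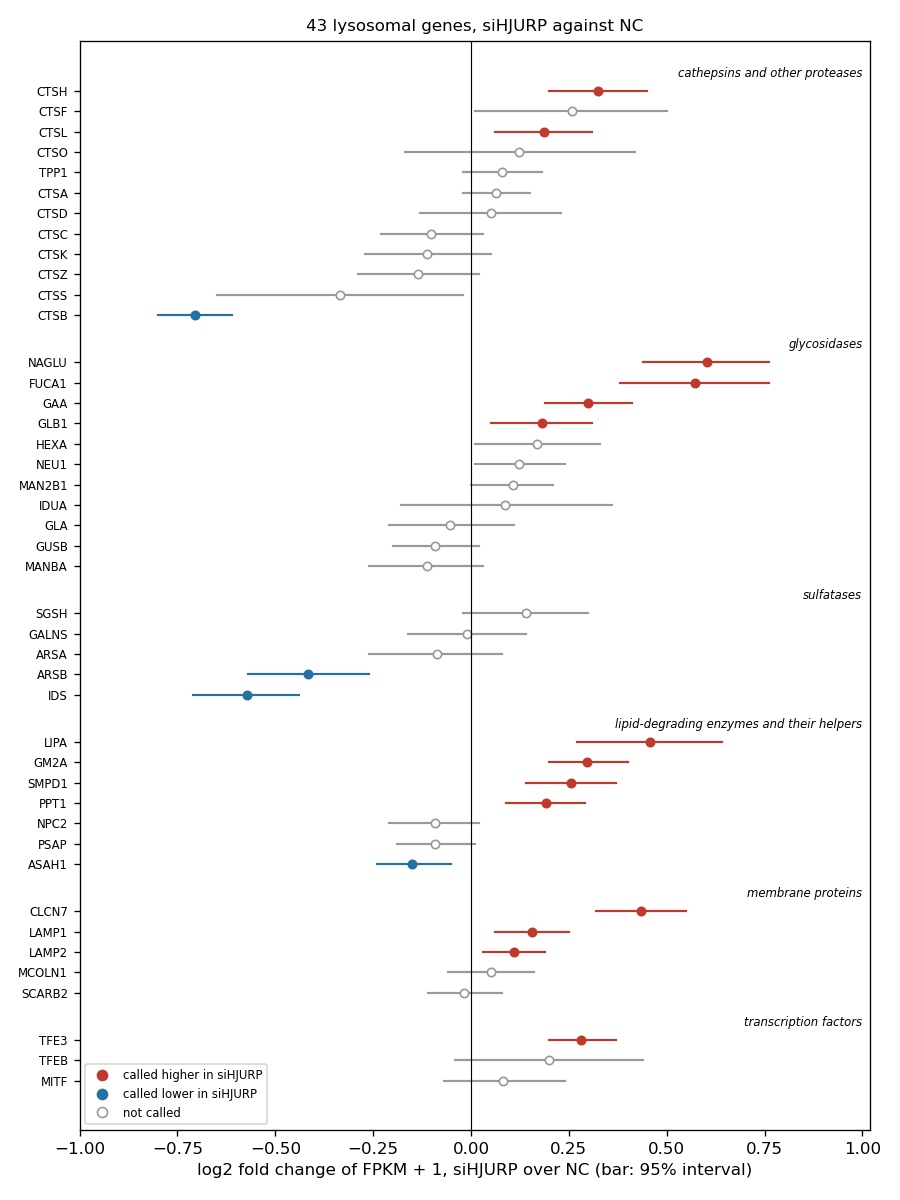
Log2 fold change of FPKM + 1, siHJURP over NC, with its 95% interval for each of the 43 genes, grouped by role. Filled red points are the 14 genes called higher, filled blue points the 4 called lower, and open points those not called; CTSB at -0.71 and NAGLU at 0.60 mark the ends.

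Among the proteases, cathepsin B fell and cathepsin L and cathepsin H rose. CTSB (ENSG00000164733), a cysteine protease and the second most abundant of the 43 transcripts in NC, had 111.7, 119 and 109.6 FPKM in siHJURP and 184, 185 and 188 FPKM in NC. All siHJURP libraries were below all NC libraries. Its mean was 113 ± 5.03 FPKM in siHJURP and 186 ± 2.02 FPKM in NC (SD, n = 3 each), a log2 fold change of -0.71 (SE 0.041, p adjusted by limma = 4.9e-05), and it rested on 14656 to 16310 reads in siHJURP and 23395 to 23921 reads in NC. CTSL (ENSG00000135047, chr9:87725519-87731393 in hg38), a cysteine protease with strong endopeptidase activity, had 117, 129 and 114 FPKM in siHJURP and 107, 104 and 105 FPKM in NC. The groups did not overlap, and the log2 fold change was 0.19 (SE 0.051, p adjusted by limma = 0.0272). CTSL no longer passed without NC replicate 1 (adjusted p = 0.0533), NC replicate 2 (0.0639), NC replicate 3 (0.0778) or siHJURP replicate 1 (0.0575). CTSH, an aminopeptidase, was far less abundant, with 3.84, 3.91 and 3.87 FPKM in siHJURP and 2.77, 2.94 and 2.97 FPKM in NC. All siHJURP values were above all NC values, with a log2 fold change of 0.32 (SE 0.053, p adjusted by limma = 0.00327).

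The other 9 proteases were not called, so 25% of the 12 were called, against 37.9% of all tested genes. CTSS, the cathepsin that processes the invariant chain in antigen-presenting cells, had 0.965, 0.834 and 1.52 FPKM in siHJURP and 1.64, 1.66 and 1.599 FPKM in NC. The siHJURP values were lower and did not overlap with NC, but replicate 3 lay close to NC. The log2 fold change was -0.34 (95% interval -0.65 to -0.02, p adjusted by limma = 0.0909), from 65 to 116 reads in siHJURP and 114 to 122 reads in NC. The adjusted p was 0.0209 without siHJURP replicate 3, and CTSS was not called without any other single library. CTSF, a cysteine protease, had 6.85, 7.27 and 8.27 FPKM in siHJURP and 5.97, 7.06 and 5.26 FPKM in NC. The groups overlapped through NC replicate 2. The adjusted p of 0.0907 became 0.0265 without that library, and CTSF was not called without any other single library. CTSD, the main aspartic protease of the lysosome, had 51.8, 49.8 and 51.0 FPKM in siHJURP and 46.6, 55.7 and 45.6 FPKM in NC. NC replicate 2 was above, and the other NC libraries below, all siHJURP libraries; the log2 fold change of 0.05 (adjusted p = 0.637) was 0.14 without NC replicate 2 (adjusted p = 0.0274) and -0.002 without NC replicate 3. The protective protein CTSA (0.06), the tripeptidyl peptidase TPP1 (0.08), CTSO (0.12), the dipeptidyl peptidase CTSC (-0.10), the bone-matrix collagenase CTSK (-0.11) and the carboxypeptidase CTSZ (-0.14) had adjusted p-values between 0.137 and 0.478.

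The balance of the 2 most abundant cathepsins differed between the groups in every library. The ratio of CTSL to CTSB, which no scaling between libraries can alter, was 1.048, 1.08 and 1.04 in siHJURP and 0.583, 0.563 and 0.557 in NC. It restates the opposite moves of the 2 genes. Each of them already separated the groups, so the separation of the ratio was fixed in advance. CTSB made up 27.0% to 28.1% of the summed FPKM of the 11 cathepsins in siHJURP and 37.8% to 40.0% in NC. CTSL made up 28.1% to 30.4% in siHJURP and 21.3% to 23.1% in NC. The 11 cathepsins summed to 409.5, 425 and 407 FPKM in siHJURP and to 465, 489.8 and 469 FPKM in NC, and their sum was also lower in siHJURP after rescaling to TPM (1607 ± 21.0 against 1770 ± 22.3 TPM; SD, n = 3 each).

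**Figure D3:**
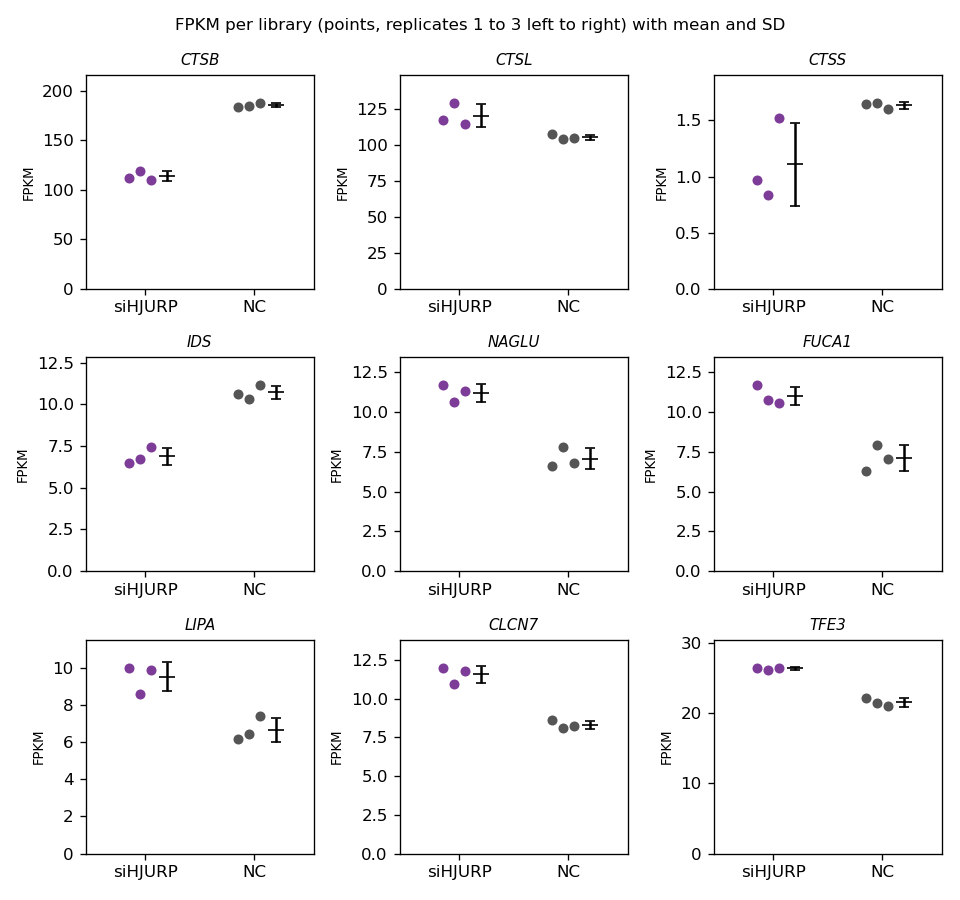
FPKM of 9 lysosomal genes in each library (points, replicates 1 to 3 from left to right) with the mean and SD of 3 libraries beside them, siHJURP left and NC right; each vertical axis starts at 0. CTSB, CTSS and IDS lie lower and the other 6 genes higher in siHJURP, and the CTSS value of siHJURP replicate 3 (1.52 FPKM) lies near the NC values.

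Of the 11 glycosidases, 4 rose (36.4%), 0 fell and 7 were not called, against 17.6% higher and 20.3% lower of all tested genes. NAGLU (ENSG00000108784, chr17:42536172-42544449 in hg38), the N-acetylglucosaminidase of heparan sulfate breakdown, had 11.7, 10.6 and 11.3 FPKM in siHJURP and 6.59, 7.80 and 6.77 FPKM in NC. The lowest siHJURP value was above the highest NC value, and the log2 fold change of 0.60 (SE 0.068, p adjusted by limma = 0.000724) was the highest of the 43 in the deposited scaling. FUCA1 (ENSG00000179163, chr1:23845077-23868294 in hg38), which removes fucose from glycoproteins, had 11.7, 10.8 and 10.6 FPKM in siHJURP and 6.28, 7.94 and 7.07 FPKM in NC. It too was higher in every siHJURP library, by 0.57 (SE 0.080, p adjusted by limma = 0.00173).

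GAA, the acid alpha-glucosidase that degrades glycogen, had 15.7, 14.5 and 16.0 FPKM in siHJURP and 12.4, 12.5 and 12.0 FPKM in NC. The groups did not overlap, and the log2 fold change was 0.30 (SE 0.046, p adjusted by limma = 0.00269). GLB1, the beta-galactosidase, had 16.1, 14.7 and 15.0 FPKM in siHJURP and 12.7, 14.1 and 13.2 FPKM in NC. Its groups lay closer together, with a log2 fold change of 0.18 (SE 0.053, p adjusted by limma = 0.0344). The GLB1 call was lost without NC replicate 1 (0.0996), NC replicate 3 (0.0921), siHJURP replicate 1 (0.113) or siHJURP replicate 3 (0.0717). HEXA, the alpha subunit of beta-hexosaminidase, the sialidase NEU1 and the alpha-mannosidase MAN2B1 were above NC in every siHJURP library without passing the adjusted threshold (log2 fold changes 0.17, 0.12 and 0.11, adjusted p = 0.0909, 0.0816 and 0.0926). All 3 passed it under the TPM scaling, at adjusted p = 0.0472, 0.0361 and 0.0383. The beta-glucuronidase GUSB (-0.09) and the beta-mannosidase MANBA (-0.11) were below NC in every siHJURP library and were not called either, while the alpha-galactosidase GLA (-0.05) and the alpha-iduronidase IDUA (0.09) overlapped. Processed and duplicated copies of GUSB, which may share its reads, summed to 5.85 FPKM in siHJURP and 3.61 FPKM in NC, so its value is uncertain.

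Of the 5 sulfatases, 2 fell, 0 rose and 3 were not called. The share called was 40%, near the 37.9% of all tested genes (17.6% higher, 20.3% lower). IDS (ENSG00000010404, chrX:149476990-149521096 in hg38), the iduronate 2-sulfatase of heparan and dermatan sulfate breakdown, had 6.48, 6.74 and 7.44 FPKM in siHJURP and 10.6, 10.3 and 11.2 FPKM in NC. The highest siHJURP value was below the lowest NC value. Its mean was 6.89 ± 0.499 FPKM in siHJURP and 10.7 ± 0.409 FPKM in NC (SD, n = 3 each), 35.7% lower, with a log2 fold change of -0.57 (SE 0.058, p adjusted by limma = 0.000458). Its partial copy IDSP1 stood at 0.196 FPKM in siHJURP and 0.512 FPKM in NC. ARSB (ENSG00000113273, chr5:78777209-78986087 in hg38), the sulfatase of dermatan and chondroitin sulfate, had 2.99, 3.32 and 2.80 FPKM in siHJURP and 4.56, 4.32 and 4.27 FPKM in NC. It was lower in every siHJURP library, by -0.42 on the log2 scale (SE 0.065, p adjusted by limma = 0.00273). SGSH, the heparan N-sulfatase, was above NC in every siHJURP library at 6.01, 6.14 and 6.58 FPKM, against 5.93, 4.99 and 5.81 FPKM in NC, but was not called (0.14, adjusted p = 0.149). ARSA, which removes sulfate from sulfatide (-0.09), and GALNS, which acts on keratan and chondroitin sulfate (-0.01), overlapped with NC.

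The enzymes of heparan sulfate breakdown, which act in turn on the same chain, did not move together. NAGLU rose and IDS fell, whereas IDUA, SGSH and GUSB were not called. The ratio of NAGLU to IDS was 1.80, 1.57 and 1.52 in siHJURP and 0.619, 0.754 and 0.607 in NC. Each gene already separated the groups, in opposite directions. The ratio therefore had to separate them too, and it adds no further support. HGSNAT, the acetyltransferase that precedes NAGLU, was named here for its role after its values had been seen, and had a log2 fold change of 0.06 (adjusted p = 0.433).

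Of the 7 lipid-degrading enzymes and their helpers, 4 rose (57.1%), 1 fell (14.3%) and 2 were not called. All tested genes stood at 17.6% higher and 20.3% lower. The groups did not overlap for any of the 7, which was also so for 52.2% of all tested genes. LIPA (ENSG00000107798, chr10:89213569-89414557 in hg38), the acid lipase of cholesteryl esters and triglycerides, had 10.01, 8.61 and 9.89 FPKM in siHJURP and 6.17, 6.41 and 7.38 FPKM in NC. Replicate 2 was the lowest of the siHJURP libraries and still above all NC libraries, and the log2 fold change was 0.46 (SE 0.079, p adjusted by limma = 0.00427). LIPA shares 65 exonic bases, 1.32% of its own, with the interferon-stimulated gene IFIT2 on the opposite strand, which stood at 2.33, 1.42 and 2.67 FPKM in siHJURP and 1.55, 2.17 and 2.07 FPKM in NC. The part of IFIT2 reads in LIPA was not tested. GM2A, the activator protein that presents GM2 ganglioside to hexosaminidase, had 15.4, 16.0 and 14.7 FPKM in siHJURP and 12.4, 12.2 and 12.4 FPKM in NC. All siHJURP libraries were higher, with a log2 fold change of 0.30 (SE 0.042, p adjusted by limma = 0.00189).

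SMPD1, the acid sphingomyelinase, had 18.3, 17.4 and 16.6 FPKM in siHJURP and 13.8, 14.8 and 14.8 FPKM in NC. The groups were apart, with a log2 fold change of 0.26 (SE 0.049, p adjusted by limma = 0.00658). PPT1, which removes palmitate from proteins, had 31.4, 32.8 and 31.4 FPKM in siHJURP and 26.5, 27.9 and 28.9 FPKM in NC, a log2 fold change of 0.19 (SE 0.043, p adjusted by limma = 0.0125). PPT1 shares 1189 exonic bases (23.4% of its own) with CAP1 on the opposite strand, and CAP1 stood at 70.8 FPKM in siHJURP and 73.5 FPKM in NC. The sources used here do not state if counting was stranded, so reads of that stretch cannot be assigned to either gene. ASAH1, the acid ceramidase, had 7.82, 7.64 and 7.60 FPKM in siHJURP and 8.44, 8.89 and 8.59 FPKM in NC, lower by -0.15 on the log2 scale (SE 0.040, p adjusted by limma = 0.0247). This small fall was not called without NC replicate 2 (0.0562), NC replicate 3 (0.0628), siHJURP replicate 1 (0.0591), siHJURP replicate 2 (0.0631) or siHJURP replicate 3 (0.0745), nor under the TPM scaling (0.0923). PSAP, the precursor of the saposins and the most abundant of the 43 transcripts, had 313, 305 and 319 FPKM in siHJURP and 327, 349 and 324 FPKM in NC. It lay just below NC in every siHJURP library without being called (-0.09, adjusted p = 0.129), as did the cholesterol carrier NPC2 (-0.09, adjusted p = 0.174).

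Of the 5 membrane proteins, 3 rose (60%), 0 fell and 2 were not called, against 17.6% higher and 20.3% lower of all tested genes. CLCN7 (ENSG00000103249, chr16:1444934-1475580 in hg38), the lysosomal chloride-proton exchanger, had 12.0, 10.9 and 11.8 FPKM in siHJURP and 8.60, 8.13 and 8.20 FPKM in NC. All siHJURP libraries were higher, with means of 11.6 ± 0.556 FPKM in siHJURP and 8.31 ± 0.251 FPKM in NC (SD, n = 3 each) and a log2 fold change of 0.43 (SE 0.048, p adjusted by limma = 0.000672). CLCN7 shares 183 exonic bases (2.25% of its own) with AL031600.1 on the opposite strand, which stood at 2.96 FPKM in siHJURP and 2.15 FPKM in NC. LAMP1 had 89.0, 86.1 and 88.0 FPKM in siHJURP and 76.9, 82.3 and 76.8 FPKM in NC, a log2 fold change of 0.16 (SE 0.040, p adjusted by limma = 0.0204). LAMP2, needed for fusion with autophagosomes, had 32.9, 32.8 and 31.7 FPKM in siHJURP and 29.9, 30.0 and 30.1 FPKM in NC, a log2 fold change of 0.11 (SE 0.033, p adjusted by limma = 0.0341).

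For both LAMP genes the groups did not overlap, but the changes were small and their adjusted p-values lay near the threshold. In the omissions that follow, the log2 fold change was 0.138 to 0.153 for LAMP1 and 0.101 to 0.113 for LAMP2. LAMP1 was not called without NC replicate 1 (0.0656), NC replicate 3 (0.0721), siHJURP replicate 1 (0.0788) or siHJURP replicate 3 (0.0593). LAMP2 was not called without NC replicate 1 (0.0851), NC replicate 2 (0.0552), NC replicate 3 (0.0851), siHJURP replicate 1 (0.12) or siHJURP replicate 2 (0.0829). MCOLN1, the calcium channel through which lysosomes signal, had a log2 fold change of 0.05 (95% interval -0.06 to 0.16), and SCARB2, a sorting receptor of the lysosomal membrane, had -0.02 (-0.11 to 0.08). Both overlapped with NC.

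Of the 3 transcription factors, 1 was called (33.3%, against 37.9% of all tested genes), and that was TFE3, which rose. TFE3 (ENSG00000068323, chrX:49028726-49043486 in hg38) was by far the most abundant of them, at 26.5, 26.1 and 26.4 FPKM in siHJURP and 22.2, 21.4 and 21.0 FPKM in NC. The groups did not overlap and varied little within themselves (26.4 ± 0.183 FPKM in siHJURP, 21.5 ± 0.616 FPKM in NC; SD, n = 3 each), with a log2 fold change of 0.28 (SE 0.036, p adjusted by limma = 0.00114). TFEB had 2.25, 1.91 and 2.51 FPKM in siHJURP and 1.57, 2.01 and 1.83 FPKM in NC. NC replicate 2 lay above siHJURP replicate 2, and the log2 fold change of 0.20 was not called (95% interval -0.04 to 0.44, adjusted p = 0.164). MITF, the melanocyte member of the family, had 3.41, 3.82 and 3.86 FPKM in siHJURP and 3.39, 3.26 and 3.67 FPKM in NC, an overlap with a log2 fold change of 0.08 (95% interval -0.07 to 0.24, adjusted p = 0.374). The 4 melanocyte markers summed to 0.660 to 0.977 FPKM in siHJURP and 0.423 to 0.547 FPKM in NC. These are transcript levels, and the location of the proteins, through which mTORC1 controls them, was not measured.

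The levels of the 43 genes spanned a wide range. In NC, PSAP (333 FPKM), CTSB (186), CTSL (105), CTSZ (81.1) and LAMP1 (78.7) were the most abundant, and HEXA (2.21), TFEB (1.80), CTSS (1.63), IDUA (1.53) and CTSO (1.26) the least. PSAP, CTSB and CTSL together held 46.1% to 47.3% of the summed FPKM of the 43 in siHJURP and 51.0% to 51.9% in NC. The sum of all 43 was 1177, 1169 and 1171 FPKM in siHJURP and 1191, 1251 and 1198 FPKM in NC. That small difference turned round with the scaling: in TPM the sum was 4557 ± 60.03 in siHJURP and 4524 ± 54.0 in NC (SD, n = 3 each). The fall of CTSB alone was larger than the difference of the sums in FPKM. Within the siHJURP group, replicate 2 was the lowest library for 21 of the 43 genes (48.8%), against 33.7% of all tested genes. That replicate also had the lowest levels of IFIT1 and BST2 in the group, and the part of the interferon-stimulated pattern in the lysosomal values was not tested.

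**Figure D4:**
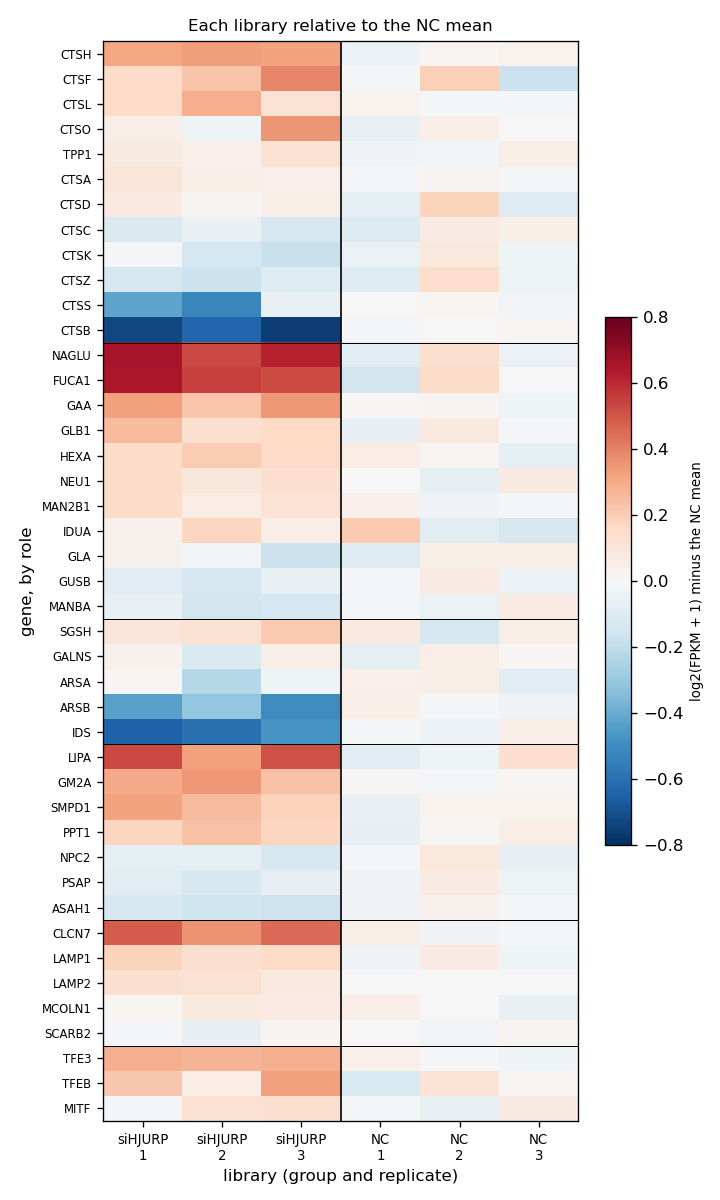
Heat map of log2(FPKM + 1) minus the NC mean for the 43 genes (down) in each of the 6 libraries (across), siHJURP left and NC right, with horizontal lines between the roles. NAGLU, FUCA1, LIPA and CLCN7 are red and CTSB, IDS and ARSB blue in all 3 siHJURP libraries, while CTSS is nearer to 0 in siHJURP replicate 3 than in the other siHJURP libraries.

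Other genes of the pathway were read from lists of known members, chosen with earlier results of these data known. Of 31 further lysosomal hydrolases, 22 were tested, of which 6 rose and 3 fell (median log2 fold change 0.08). The shares were 27.3% higher and 13.6% lower, 40.9% together, against 17.6%, 20.3% and 37.9% of all tested genes. AGA, which cleaves asparagine-linked sugars (0.39), and the acid nuclease DNASE2 (0.36) rose, and the hyaluronidase HYAL2 fell (-0.29). Of 29 further membrane proteins and transporters, 23 were tested, of which 6 rose (26.1%) and 3 fell (13.0%), 39.1% together (median 0.08). LAPTM4B, a lysosomal membrane protein often abundant in carcinomas, had 62.3, 61.2 and 63.2 FPKM in siHJURP and 119.6, 131 and 121 FPKM in NC. The groups were far apart, with a log2 fold change of -0.98 (SE 0.043, p adjusted by limma = 2.3e-05). ATP13A2, the polyamine exporter, fell as well (-0.79), while the sialic acid exporter SLC17A5 (0.55) and TMEM192 (0.53) rose.

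The proton pump, the sorting machinery and the nutrient-sensing proteins each held genes that moved both ways. Called shares were 41.2% higher and 11.8% lower for the pump, 26.3% and 10.5% for sorting, and 31.8% and 22.7% for nutrient sensing. All tested genes stood at 17.6% higher and 20.3% lower. All 17 subunits of the vacuolar ATPase, which acidifies the lysosome, were tested: 7 rose, among them ATP6V1F (0.32), ATP6V1C1 (0.28) and ATP6V0D1 (0.24), and 2 fell, with ATP6V1E1 at -0.34 (median of the 17: 0.06). Without siHJURP replicate 1, the count of pump subunits was 3 higher and 1 lower. Of 19 genes of mannose 6-phosphate tagging and sorting, 5 rose, including both mannose 6-phosphate receptors, M6PR (0.23) and IGF2R (0.40), and the adaptor subunit AP3D1 (0.26). In that list 2 fell, CLN6 (-0.49) being the larger change, and 1 was called lower without NC replicate 1, NC replicate 3 or siHJURP replicate 3 (median of the 19: 0.04).

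Of 22 genes of nutrient sensing at the lysosome, which controls where TFEB, TFE3 and MITF reside, 7 rose and 5 fell (median 0.09). LAMTOR3, a subunit of the Ragulator scaffold that holds mTORC1 at the lysosome, had 4.30, 3.90 and 3.84 FPKM in siHJURP and 8.32, 7.93 and 8.67 FPKM in NC. It was lower in every siHJURP library, by -0.89 on the log2 scale (SE 0.056, p adjusted by limma = 7.1e-05). The GTPase RRAGD rose (0.33). Subunits of calcineurin, the phosphatase that releases TFEB, went opposite ways. The catalytic subunit PPP3CB had 17.3, 17.6 and 17.0 FPKM in siHJURP and 12.3, 12.6 and 12.7 FPKM in NC (0.44), and the regulatory subunit PPP3R1 had 13.1, 12.4 and 11.2 FPKM in siHJURP and 18.3, 19.1 and 18.3 FPKM in NC (-0.56).

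**Figure D5:**
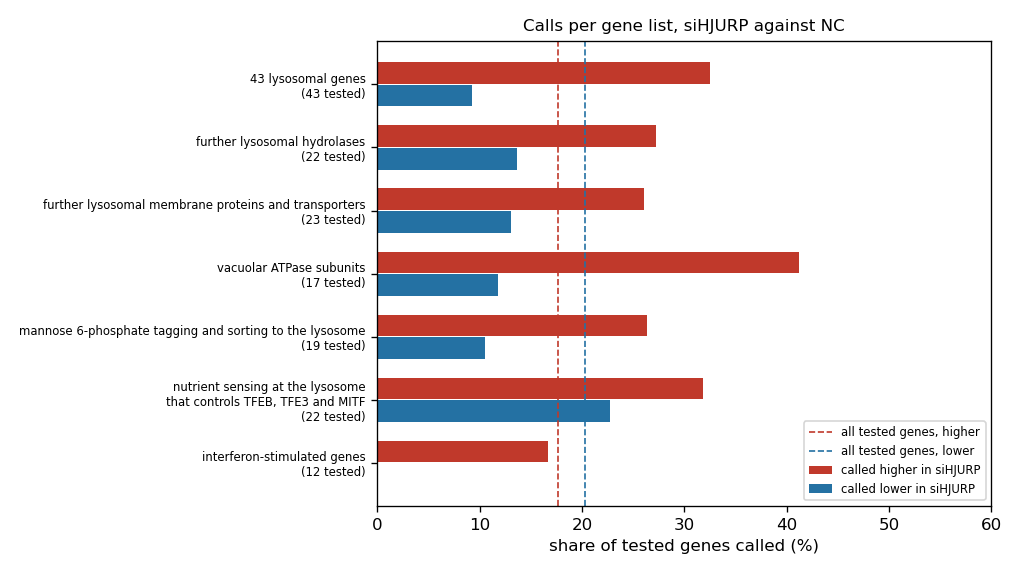
Share of the tested genes of each list called higher (red bars) or lower (blue bars) in siHJURP against NC, with dashed lines at the shares of all tested genes (17.6% higher, 20.3% lower). The 43 lysosomal genes stand at 32.6% higher and 9.30% lower; the shares describe the lists and were not compared by a test.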

How the data were processed

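The deposited tables gave the authors' FPKM per gene for 6 libraries; per the submitters' processing notes, HISAT2 2.0.5 and featureCounts 1.5.0-p3 were used with hg38. Strand handling is not stated in the sources used here. FPKM times gene length came to whole reads in 100% of values (tolerance 0.01 reads). The library size behind the FPKM was 1.02 to 1.03 times the summed reads in siHJURP and 0.985 to 0.989 times in NC, so the deposited values had already been scaled across libraries. Gene positions were those of the files, and overlaps came from GENCODE 29.

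Genes with a mean of at least 1 FPKM were tested on log2(FPKM + 1), which understates changes of low genes, with limma 3.58.1 in R 4.3.3 (all 6 libraries, two-sided, intensity trend, Benjamini-Hochberg adjustment at 0.05); tables were made with Python 3.11.15. All adjusted p-values are limma's. The script was tested on simulated data. The 43 genes and the lists were chosen with earlier results of these data known. All 43 were named, and of each list at most the 4 genes with the smallest adjusted p; results of some list genes are not reported here. Depth limits the low genes most, as for CTSS (65 to 122 reads per library). Alternatives varied the pseudocount, filter, scaling, use of whole reads (limma's voom), trend, replicate block and single libraries.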

Additional observations from a re-analysis of the deposited data

How the results depend on the processing

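Of the 18 called genes among the 43, 13 kept their direction and call in each of the 15 alternatives other than siHJURP replicate 2 alone in which they were tested (ARSB, CLCN7, CTSB, CTSH, FUCA1, GAA, GM2A, IDS, LIPA, NAGLU, PPT1, SMPD1 and TFE3; ARSB and CTSH were below the filter of 5 FPKM and untested there), and LAMP1, LAMP2, CTSL, GLB1 and ASAH1 each lost it under at least 1. Of the uncalled genes, 10 were called under at least 1. Leaving out single libraries gave 10 to 14 of the 43 higher and 3 to 4 lower, 1649 to 2192 of all genes higher and 2070 to 2532 lower, and a median of the 43 of 0.076 to 0.104. Limma's voom on whole reads called 22 of the 43 higher and 4 lower. It also called more of the 13365 tested genes higher, 3523 against 2355 as deposited, and 2424 against 2713 lower. The median of the 43 was 0.172 in TPM, 0.13 when scaled by total reads and 0.169 by voom. Higher genes were 46.5% of all calls as deposited, against 59.5% in TPM, 58.5% by total reads and 59.2% by voom. With siHJURP replicate 2 as the only siHJURP library, an alternative chosen after seeing the data, 4 of the 43 were higher and 2 lower, and 716 and 1128 of all genes. Fold changes that changed sign were all of uncalled genes: GALNS (TPM 0.045, total reads 0.035, voom 0.04, without NC replicate 2 0.015, and -0.046 to 0.041 over all libraries left out), SCARB2 (TPM 0.04, total reads 0.033, voom 0.035, and -0.039 to 0.005 over libraries left out), GLA (TPM 0.004, and -0.104 to 0.006), CTSD (-0.002 to 0.139) and CTSO (siHJURP replicate 2 alone -0.041). The summed level of the 43 was 32.2 TPM higher in siHJURP, and 3.7 FPKM higher by total reads, both also chosen after seeing the data. The cause of these changes was not tested. Of the further lists, transporters called higher numbered 1 at a filter of 5 FPKM and 11 by voom, sorting genes 8 in TPM, and nutrient-sensing genes 11 in TPM. The other transporters called higher as deposited, TMEM192 among them, were below the filter of 5 FPKM and untested there. With the replicate number as a block, 12 of the 43 were higher and 3 lower, and 2050 and 2477 of all genes. Same-numbered libraries did not deviate together (correlations of -0.012 to 0.016, and 1 of 6 libraries correlated best with its own number). With 3 libraries per group this cannot exclude a pairing by number, and the labels do not state one.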
